A study of Mus musculus with 12 samples.

Results

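Calb1 and Calml4 encode small cytosolic proteins that bind calcium through EF-hands, and both were measured in the renal medulla of mice kept with restricted water and of control mice. The arrays carried 5 clones annotated with 1 of these genes, 4 for Calb1 and 1 for Calml4, out of 15600 clones, so that 2 of 6786 annotated genes are described here. Both genes were selected on the measured values of these same arrays, so their differences between mice and between groups are given as descriptions with no test.

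RNA of the medulla was amplified and hybridised to 2-colour arrays, with 3 water-restricted mice, called WR1 to WR3, and 3 control mice, called C1 to C3. Each water-restricted mouse was paired with each control mouse, which gave 9 pairs of mice. In 3 pairs, WR1 with C3, WR2 with C1 and WR3 with C2, both dye orientations were made, for 12 arrays in all. The sources used here give neither strain, sex and age nor the length of the water restriction.

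Calbindin, the product of Calb1, buffers calcium and carries it through the cells of the distal convoluted and connecting tubules, where calcium enters through the apical channel Trpv5 and leaves through the pump Atp2b1 and the exchanger Slc8a1. Calmodulin-like 4, the product of Calml4, resembles calmodulin and is known from the intestinal brush border, where it is a light chain of the myosin Myo7b in the complex that links the tips of microvilli. In the kidney a dense brush border is a property of the proximal tubule.

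Each value below is a log2 ratio of a water-restricted and a control mouse, averaged over the 2 adjacent spots of a clone. The 6 arrays that carried their water-restricted mouse in Alexa Fluor 546 are called 546 arrays below, and the 6 that carried it in Alexa Fluor 647 are called 647 arrays. The 647 arrays had their sign changed, so that all 12 run the way of the 546 arrays. Which dye is the numerator of the deposited ratio is not given in the sources used here. If Alexa Fluor 546 is the numerator, a positive value stands for more RNA in the water-restricted mouse, and with Alexa Fluor 647 as numerator it stands for less. The choice to change signs itself rests on little, since the ratios of the 3 dye-swapped pairs, once turned, correlated across clones at 0.14, -0.13 and 0.13. The array of WR2 against C2 had an SD over spots of 1.21, against 0.515 to 0.764 on the other 11 arrays. The levels of Calb1 and Calml4, medians or mean levels of the gene lists, and the correlations of both genes with other genes are also given without that array.

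The single Calml4 clone (BG071510, spots 2911 and 2912) had a sign that followed the control mouse on the array. Against C1 it had -0.17 with WR1, -0.12 and -0.08 on the arrays of WR2, and -0.89 with WR3. Against C2 it had 1.29 with WR1, 2.25 with WR2, and 1.28 and 0.91 on the arrays of WR3. Against C3 it had 1.07 and 0.60 on the arrays of WR1, 0.64 with WR2 and 0.89 with WR3. The clone was thus negative on each of the 4 arrays with C1 and positive on each of the 8 arrays with C2 or C3. With C1, only the value of WR3 exceeded in size the clone's residual SD of 0.18 between arrays, given below. That SD is from a fit with a dye term, whereas the ratios here still hold the clone's dye term of 0.26, given below. The dye term exceeds in size the values of WR1 and WR2 with C1. Taking it out turns the 647 array of WR2 against C1 positive, so the rule of signs holds only for ratios that include it. On that array the spots of the clone differed in sign, at 0.12 and -0.27. The largest ratio, 2.25, came from the array of WR2 against C2, on which its spots read 1.65 and 2.84.

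Calb1 clone BG071405 (spots 8043 and 8044) had a different pattern. Against C1 it had -0.63 with WR1, -1.17 and -0.97 on the arrays of WR2, and 0.35 with WR3. Against C2 it had 0.92 with WR1, 0.80 with WR2, and 2.48 and 3.31 on the arrays of WR3. Against C3 it had -1.03 and -0.63 on the arrays of WR1, -0.68 with WR2 and 0.23 with WR3. It was positive on every array that held WR3 or C2 and negative on every other array, which split the 12 arrays into 6 and 6. Both arrays that set WR3 against C2 stood above all others for this clone.

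**Figure D1:**
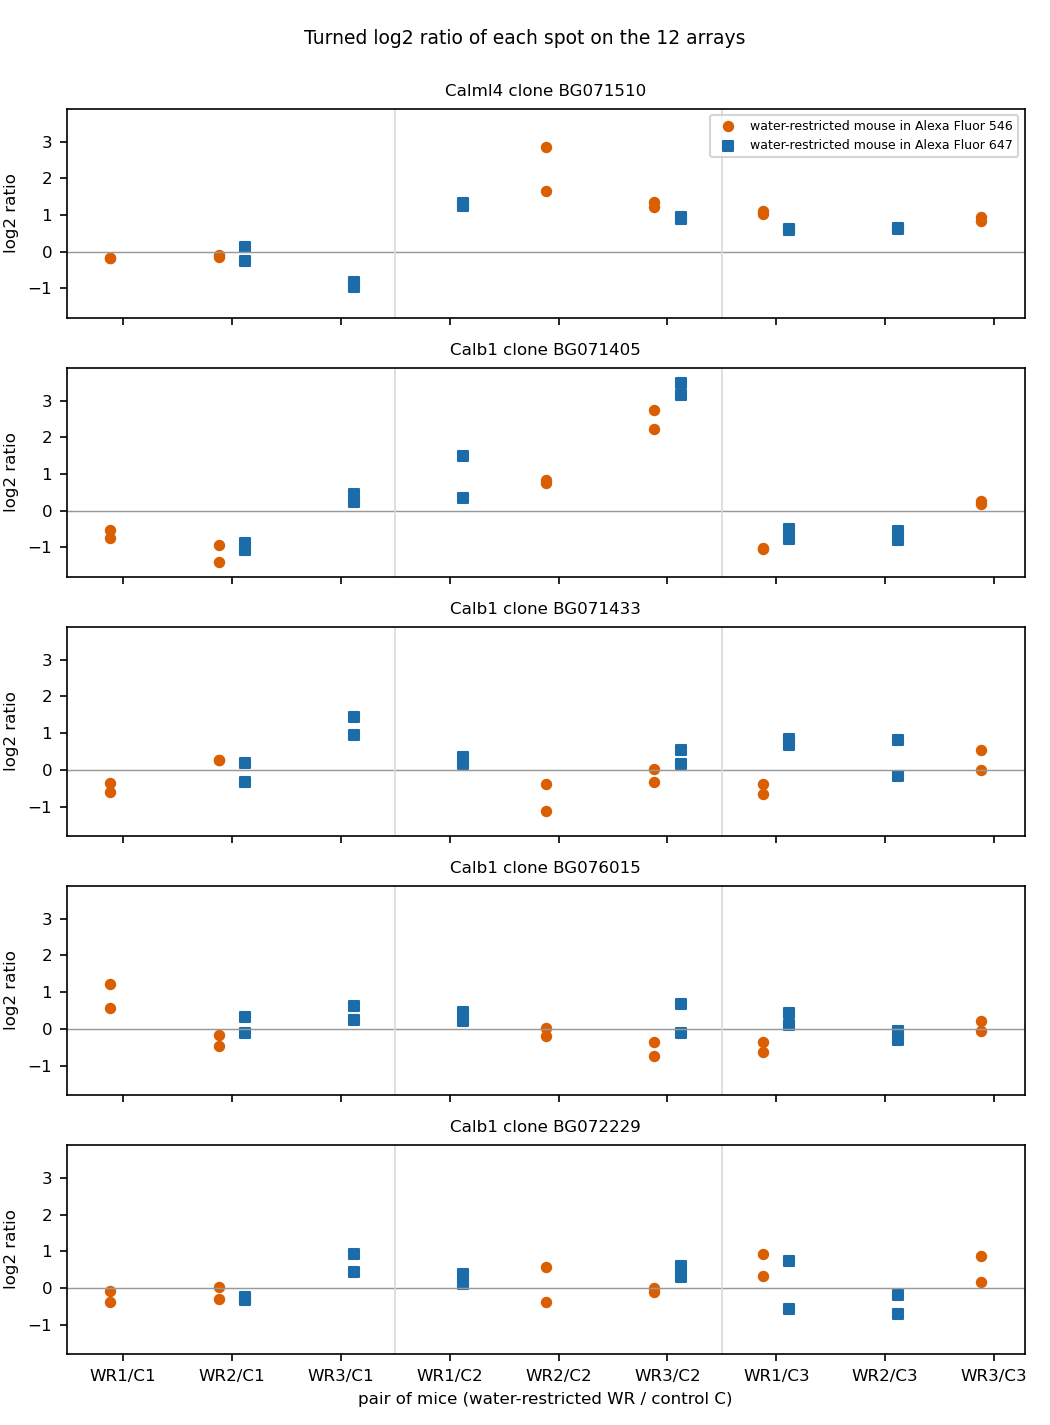
Log2 ratio of each spot (vertical axis, turned to 1 orientation) for the 5 clones on the 12 arrays, with the pair of mice on the horizontal axis; circles are 546 arrays and squares 647 arrays. Calml4 lies near or below 0 with C1 and above 0 with C2 and C3, and Calb1 clone BG071405 reaches 3.31 as the mean of its spots with WR3 against C2, while the other 3 Calb1 clones stay closer to 0.

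The other 3 Calb1 clones did not share the pattern of BG071405. Clone BG071433 (spots 4793 and 4794) had -0.48, -0.52, 0.26, -0.76, -0.15 and 0.27 on the 546 arrays, those of WR1 with C1 and C3, WR2 with C1 and C2, and WR3 with C2 and C3. On the 647 arrays it had 0.24, 0.75, -0.07, 0.33, 1.18 and 0.36, those of WR1 with C2 and C3, WR2 with C1 and C3, and WR3 with C1 and C2. Its values thus ran mainly negative on 546 arrays and mainly positive on 647 arrays.

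In the same order of arrays, clone BG076015 (spots 14351 and 14352) had 0.89, -0.50, -0.32, -0.08, -0.55 and 0.08 on 546 arrays. It had 0.34, 0.27, 0.11, -0.17, 0.43 and 0.29 on 647 arrays. Clone BG072229 (spots 30733 and 30734) had -0.24, 0.63, -0.15, 0.10, -0.05 and 0.53 on 546 arrays, and 0.25, 0.08, -0.30, -0.45, 0.69 and 0.45 on 647 arrays. Each of these 3 clones was positive on 7 of 12 arrays, and only the 1.18 of BG071433 passed 1 in size.

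Adjacent spots of the Calml4 clone correlated at 0.93 over the 12 arrays and those of BG071405 at 0.96, against a median of 0.57 over all clones. For BG071433, BG076015 and BG072229 the spots correlated at 0.67, 0.67 and 0.26. Calml4 and BG071405 had the same sign on both arrays of all 3 swapped pairs, as 16.1% of all clones did. For Calml4 the pair of WR2 with C1 had only -0.12 and -0.08, which differ in sign once the dye term is taken out. BG072229 had the same sign in 2 of 3 pairs, and BG071433 and BG076015 in 0 of 3. The mean gap between both arrays of a pair was 0.29 for Calml4, 0.48 for BG071405, 0.71 for BG071433, 0.68 for BG076015 and 0.40 for BG072229.

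The clones of Calb1 correlated at 0.37 or less with each other. Over the 12 arrays, with the dye term removed, BG071405 had a Pearson r of -0.02 with BG071433 (Spearman 0.11), -0.03 with BG076015 (Spearman 0.20) and 0.31 with BG072229 (Spearman 0.40). BG071433 had an r of 0.37 with BG072229 (Spearman 0.34) and 0.01 with BG076015 (Spearman 0.12), and the last pair had 0.04 (Spearman 0.23). The arrays share their 6 mice, so these values only describe the 12 ratios. The mean over clones, used below as the gene's value, therefore averages clones that disagree.

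To read the ratios as 1 value per mouse, a weighted least-squares fit gave each of the 6 mice a level on the log2 scale, with the mean of the mice at 0 and with a dye term. The Calml4 level was 0.33 in WR1, 0.61 in WR2 and 0.04 in WR3, against 0.71 in C1, -1.22 in C2 and -0.46 in C3 (technical SE 0.11). C1 stood highest of the 6 mice and C2 lowest, so the groups overlap. Calml4 spread over 1.93 among the control mice and 0.57 among the water-restricted mice.

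In the order of Calml4 levels, C1 exceeded WR2 by 0.11 (SE 0.13), WR2 exceeded WR1 by 0.28 (SE 0.16) and WR1 exceeded WR3 by 0.29 (SE 0.16), each under 2 SE. WR3 lay 0.50 above C3 (SE 0.15) and C3 lay 0.76 above C2 (SE 0.16). The SE of these steps is technical and the mice were ordered on the same levels, so the steps are descriptions and no test. The residual SD of Calml4 between arrays was 0.18, against a median of 0.29 over all genes. Without the array of WR2 against C2, its levels were 0.35, 0.47 and 0.07 in WR1 to WR3 and 0.68, -1.09 and -0.49 in C1 to C3, which left C1 highest and C2 lowest.

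For Calb1 clone BG071405 the level was -0.29 in WR1, -0.43 in WR2 and 1.05 in WR3, against 0.56 in C1, -1.43 in C2 and 0.54 in C3 (technical SE 0.16). WR3 stood highest and C2 lowest. WR3 lay 0.49 above C1 (SE 0.22), C1 and C3 differed by 0.02 (SE 0.23), C3 lay 0.83 above WR1 (SE 0.19), WR1 and WR2 differed by 0.14 (SE 0.23) and WR2 lay 1.00 above C2 (SE 0.22). The ratio of WR3 to C2 on the 647 array lay 0.74 above its fitted value. Without the array of WR2 against C2 the clone had -0.30, -0.34 and 1.03 in WR1 to WR3 and 0.58, -1.51 and 0.55 in the control mice.

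The other Calb1 clones had their levels within 0.46 of 0 in each mouse. BG071433 had -0.10, -0.17 and 0.46 in WR1 to WR3, against -0.21, 0.20 and -0.17 in C1 to C3. BG072229 had 0.06, -0.26 and 0.40 in WR1 to WR3, against -0.01, -0.12 and -0.08 in the control mice. WR3 was the highest mouse for both, as it was for BG071405, but C2 was not the lowest. BG076015 had 0.31, -0.18 and 0.06 in WR1 to WR3, against -0.34, 0.02 and 0.13 in the control mice, with WR1 highest. The lowest mouse without the array of WR2 against C2 was WR2 for BG072229, at -0.46, and C1 for BG076015, at -0.38, and the levels of BG071433 moved by less than 0.01.

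**Figure D2:**
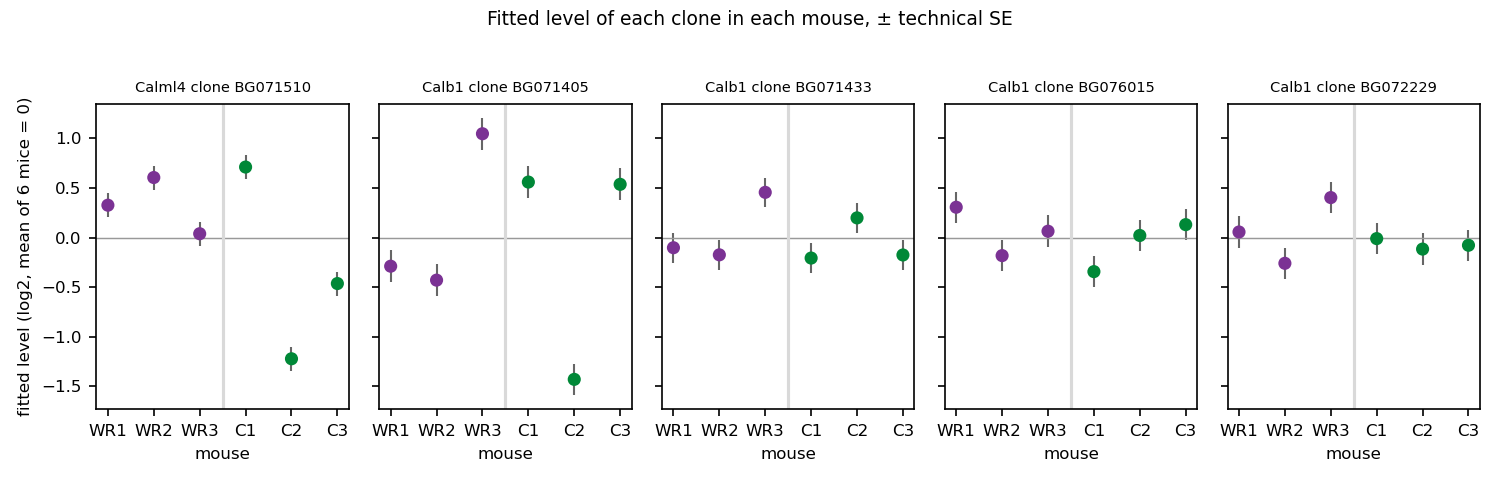
Fitted level of each clone (vertical axis, log2, mean of the 6 mice at 0) in each mouse (horizontal axis), with water-restricted mice in purple and control mice in green; bars are the technical SE of the fit. Calml4 runs from 0.71 in C1 to -1.22 in C2, and Calb1 clone BG071405 has 1.05 in WR3 and -1.43 in C2, while the other 3 clones lie closer to 0.

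Averaged over its 4 clones, Calb1 had a level of -0.01 in WR1, -0.26 in WR2 and 0.49 in WR3, against 0.00 in C1, -0.33 in C2 and 0.10 in C3 (technical SE 0.10). WR3 lay 0.39 above C3 (SE 0.14), and the next 4 steps down the order, to C1, WR1, WR2 and C2, were 0.10, 0.01, 0.25 and 0.07 (SE 0.14 each). Without the array of WR2 against C2 its levels were 0.01, -0.33 and 0.51 in WR1 to WR3, against -0.01, -0.26 and 0.09 in C1 to C3, and WR2 in place of C2 was the lowest. Without BG071405 the remaining 3 clones averaged 0.09, -0.20 and 0.31 in WR1 to WR3, against -0.19, 0.04 and -0.04 in the control mice. C2 was the lowest mouse in BG071405 and in none of the other 3 clones. Calb1 and Calml4 correlated at 0.20 over the 12 arrays (Spearman 0.25), and BG071405 alone with Calml4 at 0.47 (Spearman 0.59).

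Differences between mice of the same group were fitted for all genes with limma, whose F-test on the 12 arrays passed the adjusted threshold of 0.05 for 28 of 6786 genes (0.413%) and 60 of 15600 clones (0.385%). Calml4 is 1 of these 28 genes and Calb1 is not, and of the 5 clones BG071510 and BG071405 are among the 60. This contrast was known when the genes were chosen, so nothing is read from these counts. With equal weights for all arrays 14 genes passed, and without the array of WR2 against C2 158 did. Calml4 was among both, and Calb1 among the 158. The Calml4 call was lost where no sign was changed and without WR1 or without C3, since 0 genes passed in each of these. A fit without a mouse also lacks all arrays that held that mouse, so it rests on fewer arrays.

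Between the groups, Calml4 averaged 0.32 ± 0.28 in water-restricted mice and -0.32 ± 0.97 in control mice (SD, n = 3 mice each), a difference of 0.65 (SE 0.43). The difference is within the spread of the control mice. It depended on which control mice were used: it was 0.20 without C2 and 1.17 without C1. Its sign was positive under all 20 alternatives, none of which covers the unknown numerator dye, which would turn the sign. With no dye term, with a mouse-number block and with the median of its single clone it stayed at 0.65 by design. It was 0.26 where the arrays were read as already running 1 way and no sign was changed, the same quantity as the dye term of the main fit. In bulk tissue, fewer cells of a type and less RNA per cell cannot be told apart.

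Calb1 averaged 0.08 ± 0.38 in water-restricted mice and -0.08 ± 0.23 in control mice, a difference of 0.15 (SE 0.22), smaller than its SE. The clones gave 0.22 (SE 0.58) for BG071405, 0.12 (SE 0.22) for BG071433, 0.13 (SE 0.20) for BG076015 and 0.13 (SE 0.20) for BG072229. The sign of the Calb1 difference turned without WR3, at -0.06, and on the 546 arrays alone, at -0.02. It was 0.30 on the 647 arrays alone, and -0.14 where no sign was changed, again the same quantity as the dye term. Across all genes, limma on the mouse levels called 0 of 6786 at an adjusted p under 0.05 (0%). At an unadjusted p under 0.05 it had 218 genes on the positive side (3.21%) and 119 on the negative side (1.75%).

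The dye term is an offset that the deposited ratios of a clone share whichever mouse is in which dye, and it was tested over all genes and clones. The choice of Calb1 and Calml4 did not name it, but used the values of these same arrays. With no sign changed, the dye term is also the group difference. The p-values of both genes and their clones are therefore descriptions only. The dye term passed the threshold for 769 of 6786 genes (11.3%) and 1054 of 15600 clones (6.76%), and for 0 of the 2 genes and 1 of the 5 clones described here. That clone was BG071433, with a dye term of -0.38 (SE 0.10, limma adjusted p = 0.0480). Its call did not hold without the array of WR2 against C2, at -0.38 (limma adjusted p = 0.0682), or with equal weights, at -0.35 (limma adjusted p = 0.101). Calml4 had a dye term of 0.26 (SE 0.07, limma adjusted p = 0.0528) and Calb1 one of -0.14 (SE 0.07, limma adjusted p = 0.184), neither past the threshold.

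Other genes of distal calcium transport were on the arrays in small number, 5 of 19 listed beside Calb1. Trpv5, Trpv6 and the vitamin D receptor gene Vdr were not among the annotated genes. Of the 5, 2 were positive and 3 negative, with a median difference between water-restricted and control mice of -0.06, beside 0.00 over all genes, of which 50.7% were positive. The median was 0.01, with 3 of the 5 positive, without the array of WR2 against C2. Sgk1, a kinase that responds to salt and hormones, had 0.59 (SE 0.19, limma adjusted p = 0.771). Its levels were 0.33, 0.35 and 0.21 in WR1 to WR3, against -0.02, -0.21 and -0.67 in C1 to C3.

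The routes by which calcium leaves the cell showed differences under their SE. Slc8a1, the sodium-calcium exchanger, had -0.07 (SE 0.16), and Atp2b1, the plasma membrane calcium pump, had -0.06 (SE 0.16). The crosslinking enzyme Tgm2 had -0.24 (SE 0.19). S100g, which encodes the smaller calbindin of intestine and kidney, had 0.07 (SE 0.27), with -0.40, -0.05 and 0.56 in WR1 to WR3, against 0.18, 0.10 and -0.38 in the control mice. WR3 was the highest mouse for S100g as for Calb1, but C3 and WR1 were the lowest. Of the distal convoluted and connecting tubule list, 3 of 15 genes beside Calb1 were measured, with a median of -0.07, and -0.06 without the array of WR2 against C2. The kinases Wnk4 and Wnk1, regulators of salt transport, had -0.15 (SE 0.15) and 0.05 (SE 0.19).

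Among calmodulin and other EF-hand proteins, 39 of 75 were measured beside Calb1 and Calml4, 21 positive and 18 negative, with a median of 0.03. The median was -0.06, with 14 of the 39 positive, without the array of WR2 against C2. At an unadjusted p under 0.05 there was 1 on each side and at an adjusted p under 0.05 there were 0. S100a6, an S100 protein, had -0.57 (SE 0.19), and Ncald, a neuronal calcium sensor, 0.37 (SE 0.14). Pef1, a penta-EF-hand protein, had 0.37 (SE 0.16) and Tesc, or tescalcin, 0.39 (SE 0.18). Of the 19 of 46 measured calmodulin-dependent enzymes and binders, 7 were positive and 12 negative (median -0.04, and -0.13 with 6 positive without that array). Marcks, a membrane protein that binds calmodulin, had -0.50 (SE 0.16), the phosphorylase kinase subunit Phkb 0.27 (SE 0.19), the elongation factor kinase Eef2k -0.23 (SE 0.16) and the kinase Camk1d 0.23 (SE 0.19).

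Calcium pumps, channels and store proteins, 19 of 50 measured, had 14 on the positive side and 5 on the negative, with a median of 0.17, and 0.09 with 13 positive without the array of WR2 against C2. The calcium release channel of the endoplasmic reticulum Itpr2 had -0.77 (SE 0.23), and the chaperone Hspa5, which binds calcium in that compartment, 0.59 (SE 0.22). Tmbim6, a protein of the same membrane, had 0.43 (SE 0.19), and Vdac1, the channel of the outer mitochondrial membrane, 0.44 (SE 0.21). None of these passed the adjusted threshold, and the smallest limma adjusted p among the 3 lists was 0.771.

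**Figure D3:**
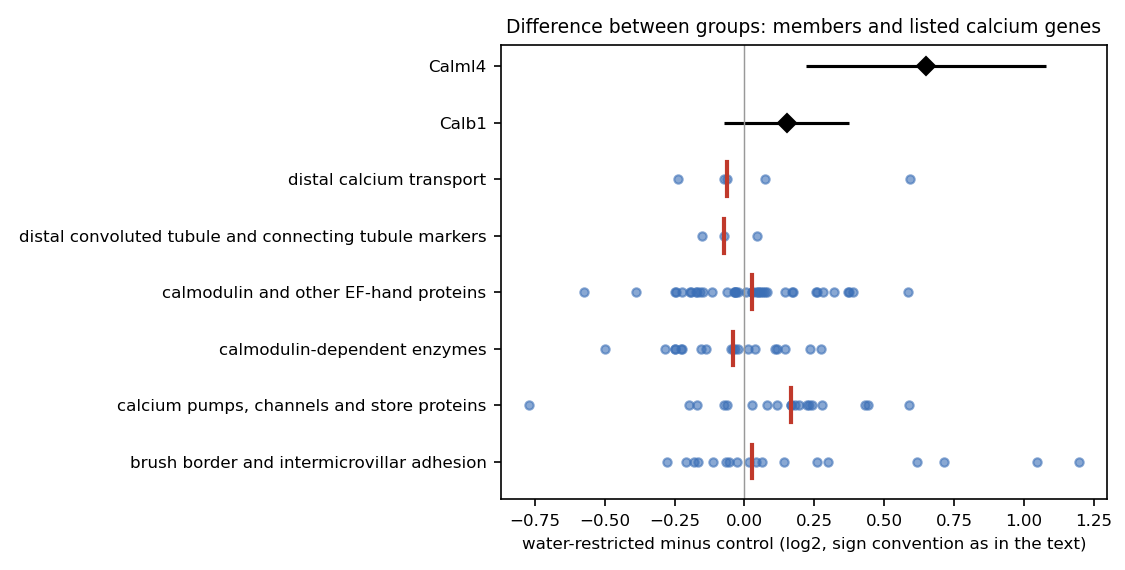
Difference between water-restricted and control mice (horizontal axis, log2, with the sign turned to that of the 546 arrays). Diamonds are Calml4 and Calb1 with their SE, circles are the other measured genes of 6 lists, and red bars are list medians. Calml4 lies at 0.65 and Calb1 at 0.15, and the list medians lie between -0.07 and 0.17.

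The brush border and intermicrovillar adhesion list, to which Calml4 belongs, had 18 of 38 other genes measured. Its partners Myo7b, Ush1c, Anks4b and Cdhr2 were not among the annotated genes. There were 10 genes on the positive side and 8 on the negative, with a median of 0.03. With the array of WR2 against C2 left out, the median was 0.08 and 11 were positive. At an unadjusted p under 0.05, 3 genes lay on the positive side and 0 on the negative, and none passed the adjusted threshold. Cdhr5, the microvillar protocadherin, had 0.62 (SE 0.29). Its levels were 0.30, 0.32 and 0.30 in WR1 to WR3, against 0.18, -1.03 and -0.07 in the control mice, with C1 highest and C2 lowest of the control mice as for Calml4.

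The 3 genes at an unadjusted p under 0.05 were Pdzk1, a scaffold of apical transporters, Lrp2, the endocytic receptor megalin, and Pls1, the actin bundler plastin. Pdzk1 had 1.20 (SE 0.30, limma adjusted p = 0.702), with 0.71, 0.38 and 0.71 in WR1 to WR3, against 0.05, -1.23 and -0.61 in the control mice. Lrp2 had 1.05 (SE 0.35, limma adjusted p = 0.771), with 0.43, 0.75 and 0.40 in WR1 to WR3, against 0.10, -1.40 and -0.27 in the control mice. For both, C1 was the highest and C2 the lowest control mouse, again as for Calml4. Pls1 had 0.71 (SE 0.26, limma adjusted p = 0.898), with 0.32, 0.52 and 0.23 in WR1 to WR3, against 0.27, -0.65 and -0.69 in the control mice, so that C3 and C2 were alike.

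Other microvillar genes lay closer to 0. The linkers of actin to the membrane had 0.04 (SE 0.15) for Ezr, 0.06 (SE 0.18) for Msn and -0.11 (SE 0.15) for Rdx, and the scaffold Slc9a3r1 had 0.26 (SE 0.21). Of the actin binders and motors, Espn had -0.17 (SE 0.14), Fscn1 -0.21 (SE 0.15), Eps8 -0.06 (SE 0.22), Baiap2l1 0.02 (SE 0.15), Ctnna1 -0.18 (SE 0.15) and Myo1d 0.14 (SE 0.18). The membrane peptidases Mme and Dpp4 had -0.28 (SE 0.27) and -0.03 (SE 0.29), the membrane protein Prom1 -0.07 (SE 0.20) and the endocytic adaptor Dab2 0.30 (SE 0.26). Levels per mouse were given above only for the genes of the list with the smallest unadjusted p. The list as a whole did not share their order of control mice. C1 was the highest and C2 the lowest control mouse also for Mme, Msn, Slc9a3r1 and Dab2. In contrast, C2 was the highest control mouse for Eps8, Rdx, Fscn1, Espn and Baiap2l1.

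Of 30 listed marker genes of the proximal tubule, 5 were measured. Their mean level was 0.39, 0.43 and 0.54 in WR1 to WR3, against 0.22, -0.92 and -0.66 in C1 to C3. C2 was the lowest mouse in this mean, as for Calml4, but WR3 was the highest, where Calml4 had C1. Without the array of WR2 against C2 it was 0.41, 0.32 and 0.56 in WR1 to WR3, against 0.20, -0.81 and -0.68 in the control mice. Gatm, the first enzyme of creatine synthesis, had 0.58, 0.49 and 1.15 in WR1 to WR3, against 0.65, -1.44 and -1.43 in the control mice. Slc22a7, an organic anion transporter, had 0.77, 0.57 and -0.34 in WR1 to WR3, against 0.91, -1.23 and -0.68 in the control mice. Slc22a7 thus shared with Calml4 the order of the control mice and WR3 as the lowest water-restricted mouse. Miox, the inositol oxygenase, had 0.23, 0.36 and 1.55, against -0.64, -0.73 and -0.76, and Cyp7b1, a steroid hydroxylase, lay between -0.16 and 0.18 in all 6 mice. The part of these cells in the Calml4 values was not tested.

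**Figure D4:**
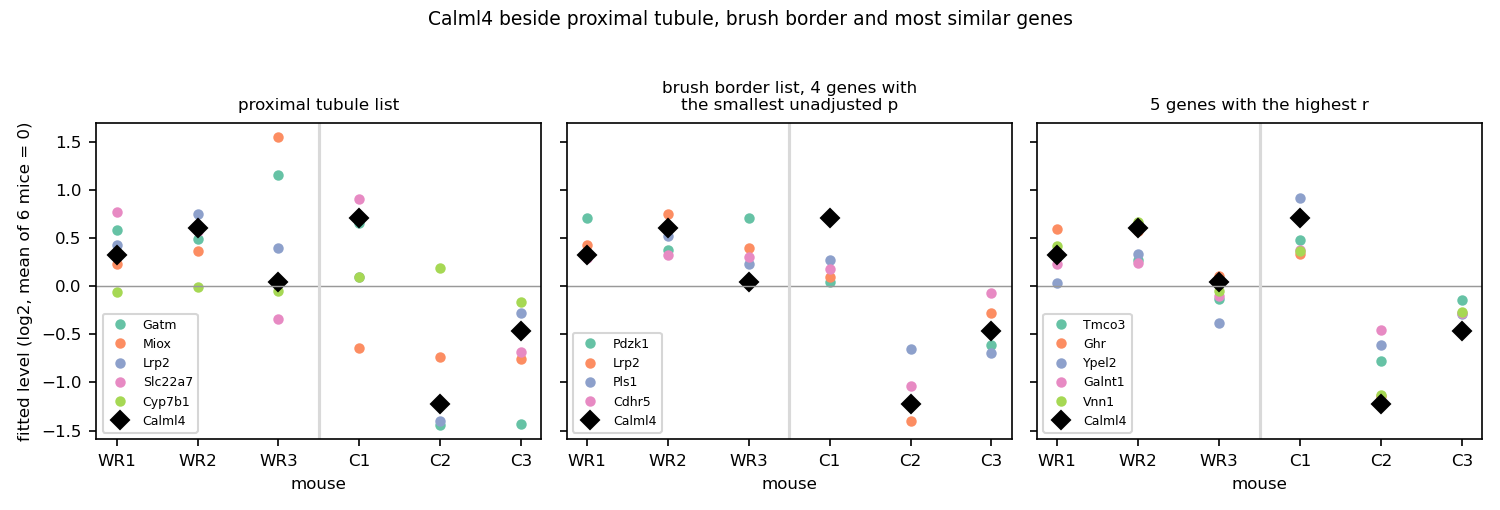
Fitted level (vertical axis, log2, mean of the 6 mice at 0) of Calml4 (diamonds) in each mouse (horizontal axis, water-restricted WR1 to WR3 left of control C1 to C3). Beside it are the 5 measured proximal tubule markers, the 4 brush border genes with the smallest unadjusted p, and the 5 genes with the highest correlation with Calml4. Lrp2 is in both of the first panels. Calml4 has 0.71 in C1 and -1.22 in C2. The 5 correlated genes were chosen on these same arrays, so their likeness to Calml4 follows from that choice. Of the other genes, Gatm, Slc22a7, Lrp2, Pdzk1 and Cdhr5 have a positive level in C1 and their lowest in C2. Miox, Cyp7b1 and Pls1 do not.

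Markers of other segments were few, and a ratio holds no level, so the tissue label could not be checked by presence of its markers. The distal segments in which Calb1 is known had 1 of 6 markers of the distal convoluted tubule (Wnk4) and 2 of 6 of the connecting tubule measured beside Calb1 (S100g and Slc8a1), with a mean level of -0.29, 0.01 and 0.28 in WR1 to WR3 for the connecting tubule pair, against 0.09, -0.01 and -0.08 in C1 to C3. The 6 of 18 measured principal cell markers of the collecting duct were all negative between the groups, with a mean level of -0.31, -0.22 and -0.35 in WR1 to WR3, against 0.16, 0.31 and 0.41 in the control mice. Median differences were -0.74 for the 1 of 12 intercalated cell markers measured, -0.51 for 3 of 10 of thin limb and inner medulla, -0.23 for 10 of 12 of the interstitium, 0.08 for 4 of 12 of the endothelium, 0.06 for 3 of 8 of podocytes, 0.20 for 3 of 12 of leukocytes and -0.62 for 2 of 9 of erythroid cells. None of the 10 thick ascending limb markers was among the annotated genes. Without the array of WR2 against C2, the median of the principal cell markers was -0.53, beside -0.51 on all arrays, and Wnk4 had -0.13. The connecting tubule pair then had mean levels of -0.32, 0.17 and 0.25 in WR1 to WR3, against 0.12, -0.16 and -0.05 in C1 to C3. With the array of WR2 against C2 left out, the medians were -0.77 for the intercalated cell, -0.59 for thin limb and inner medulla, 0.01 for the interstitium, -0.01 for the endothelium, 0.16 for podocytes, 0.17 for leukocytes and -0.73 for erythroid cells.

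Over the 12 arrays, with the dye term removed, the gene most like Calml4 was Tmco3, a membrane protein, with an r of 0.95. Its levels were 0.30, 0.27 and -0.13 in WR1 to WR3, against 0.48, -0.77 and -0.14 in the control mice. Ghr, the growth hormone receptor, had an r of 0.95, Ypel2 0.94, Galnt1, an enzyme that starts O-glycosylation of proteins, 0.94, and Vnn1, the pantetheinase vanin, 0.94. Ghr had 0.59, 0.58 and 0.11 in WR1 to WR3, against 0.33, -1.14 and -0.47 in the control mice, and Vnn1 had 0.42, 0.66 and -0.05, against 0.36, -1.13 and -0.26. In each of the 5, C2 was the lowest and C1 the highest control mouse, a likeness that follows from their choice by r. All 5 rest on 1 clone.

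Npc2, a cholesterol carrier of the lysosome, ran most opposite to Calml4 with an r of -0.93, followed by Rilpl2 at -0.92 and Zswim8 at -0.88. Npc2 had -0.27, -0.24 and 0.29 in WR1 to WR3, against -0.47, 0.55 and 0.15 in the control mice. Without the array of WR2 against C2, r lay between 0.94 and 0.96 for the 5 like genes and between -0.92 and -0.83 for the 3 opposite ones. The arrays share mice, so that an r describes these 12 ratios and is no measure over independent samples.

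Calb1 as the mean of its clones was most like Etfa, a subunit of the electron transfer flavoprotein, with an r of 0.90, followed by the ribosome assembly GTPase Lsg1 (0.87), cytochrome c, Cycs (0.87), the transcriptional coactivator Cited4 (0.86) and Noct, or nocturnin (0.86). Etfa had 0.05, -0.16 and 0.31 in WR1 to WR3, against 0.07, -0.21 and -0.05 in the control mice. The splicing factor Slu7 had an r of -0.88, and the cohesin subunit Stag1 and the chaperone-like Uri1 each had -0.82. Without the array of WR2 against C2, r lay between 0.86 and 0.90 for the 5 like genes and between -0.87 and -0.83 for the 3 opposite ones.

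Clone BG071405, singled out after its values were seen, was most like Noct (r = 0.94) and Cycs (0.92). Noct had 0.27, 0.24 and 0.51 in WR1 to WR3, against -0.25, -0.51 and -0.25 in the control mice, and Cycs had 0.13, 0.21 and 0.39, against -0.15, -0.38 and -0.19. WR3 was the highest mouse and C2 the lowest for both genes, as for the clone, by whose r they were chosen. The difference between groups was 0.68 (SE 0.16) for Noct and 0.48 (SE 0.15) for Cycs, beside 0.22 (SE 0.58) for the clone. Neither gene passed the adjusted threshold between groups, since 0 of 6786 genes did. Farthest from the clone were Tmsb4x, an actin-binding thymosin, at -0.92, the immediate early gene Egr1 at -0.90 and the trafficking GTPase Rab6a at -0.87. Egr1 had its highest level in C2, at 1.34, as did Rab6a, at 2.48.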

How the data were processed

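Medullary RNA of 3 water-restricted and 3 control mice was compared on 12 arrays. The authors deposited log2 ratios, 1 per spot and array for 31200 spots with 0 missing, with the base read from the values. The sources used here name no scanner signals, background correction, normalization or numerator dye. Replicates are separately numbered mice, per the labels. The arrays share these mice, so a group difference rests on 3 mice per group.

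Adjacent spots were averaged to 15600 clones and clones to 6786 genes, named from the platform annotation, with 9085 clones updated through Entrez identifiers in a RefSeq table (names only). Levels of the 6 mice were fitted by weighted least squares with a dye term, and arrays of swapped pairs weighed 0.5. limma 3.58.1 in R 4.3.3 compared the levels of 3 mice against 3, differences between mice of a group, and the dye term, with Benjamini-Hochberg adjustment at 0.05, and was tested on simulated data.

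The genes, lists and tests were chosen with earlier results of these data known. Named are both genes and their clones, the 5 genes with the highest and 3 with the lowest r to each, all measured genes of the distal calcium transport and brush border lists, and up to 4 genes with the smallest p of the other lists. Marker genes, and the genes like BG071405, were named after their values were seen. Same-numbered mice of both groups deviated with correlations of -0.01, -0.54 and -0.11. These mice share arrays, among them the wide array of WR2 against C2, so the values cannot decide whether the numbers pair mice. The comparison of the groups used no mouse number. Alternatives covered sign, dye term, weights, single arrays and orientations, centring, scaling, spots, clones, eBayes, threshold and each mouse left out.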

Additional observations from a re-analysis of the deposited data

Results flagged for a closer look

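Among the 6 arrays that carried their water-restricted mouse in Alexa Fluor 546, the array of WR2 against C2 lay far from the other 5 in its SD over spots, at 1.21. It was the 1 group that passed Dixon's critical value of 18 tested, and chance gives about 1 in 20. The array gave Calml4 its largest ratio, and Calml4 kept C1 as its highest and C2 as its lowest mouse without it. The part of this array's width in the Calml4 ratio was not tested.

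Calb1 clone BG071433 differed between the dye orientations, with a dye term of -0.38 (limma adjusted p = 0.0480). This p-value is a description, since Calb1 was chosen on values of these same arrays. The call was lost without the array of WR2 against C2 (limma adjusted p = 0.0682) and with equal weights (limma adjusted p = 0.101). Its turned ratios were positive on 2 of these 6 arrays and on 5 of the 6 arrays of the reverse orientation.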

How the results depend on the processing

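The group difference of Calb1 moved by less than 1 SD under all 21 alternatives, from -0.14 to 0.32, and was negative under 3. That of Calml4 also moved by less than 1 SD under all 20, from 0.20 to 1.17. The SD is that between mice within groups, 0.32 for Calb1 and 0.72 for Calml4. It exceeds the main differences of 0.15 and 0.65, so even the loss of a difference would count as a move of less than 1 SD. Settings with no dye term or with a mouse-number block return the main differences by design. With no sign changed, the difference is the dye term of the main fit. The unknown numerator dye is not among the alternatives. Without its clone BG071405, an alternative chosen after seeing the data, Calb1 had 0.13. With the mouse number as a replicate block, Calb1 had 0.15 and Calml4 0.65, and 0 genes and 0 clones passed between groups. Signal over background could not be examined, and Calml4 rests on 1 clone.

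Between groups, 1 gene and 1 clone passed on arrays in Alexa Fluor 647 alone, 1 gene on swapped pairs alone, 4 clones with no sign changed, and 451 genes and 674 clones with arrays as replicates, which counts mice repeatedly. Between mice of a group, 28 genes and 60 clones became 0 and 0 with no sign changed, 6 and 12 without a dye term, 14 and 28 with equal weights, 158 and 365 without WR2 against C2, 44 and 165 with scaled arrays, 13 and 19 on first spots, 14 and 12 on second spots, and 102 and 258 at a threshold of 0.1. Leaving out 1 mouse gave 0 to 19 genes and 0 to 73 clones, with WR2 left out giving the most. For the dye term, 769 genes and 1054 clones became 449 and 527 with equal weights, 337 and 361 on first spots, 415 and 451 on second spots, and 1305 and 2271 at a threshold of 0.1, with 635 clones where no sign was changed. Leaving out 1 mouse, and with it all arrays that held it, gave 0 to 11 genes and 1 to 3 clones. The cause of these shifts was not tested.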
